A study of Mus musculus with 16 samples.

Results

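The genes described here are 43 interferon-induced genes of the mouse, given as a list of names and not picked by a threshold on these arrays. The list was chosen with earlier results of these arrays known, so the directions given below are not independent evidence. Of the 43, 39 had a probe set annotated with a single gene symbol, out of 17097 such genes, and the probe set with the largest average signal stood for each gene. Oas1a, Isg15, Bst2 and Ifi44 had no such probe set in the annotation used here and were not analysed. Gbp3 was above the low-value floor on 3 arrays and was left out of the tests, so 38 of the 14819 genes tested are interferon-induced genes.

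The cells were fibroblasts of the dermis, which build the collagen matrix of the skin, from female C57Bl/6 mice that were 2 months (young) or 18 months (old) of age. No genotype other than the strain and no treatment is given. Some cells of each mouse were profiled right after isolation (in vivo in the labels, also called fresh below) and some after culture, which gives 4 groups of 4 Affymetrix arrays, one for each age in each condition. RNA from 5000 cells per sample was amplified over 23 cycles. How long the cells were grown, and in what medium, is not given in the sources used here, nor is which arrays share a mouse. The replicate numbers below only name arrays and pair nothing across groups.

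Interferons are secreted proteins by which cells announce infection. Type I interferons bind the receptor of Ifnar1 and Ifnar2, and interferon gamma binds that of Ifngr1 and Ifngr2; both pass the signal through Jak kinases to Stat proteins, which enter the nucleus. A complex that holds Stat2 and Irf9 binds the interferon-stimulated response element (ISRE), and genes induced by interferon gamma often carry the gamma-activated site (GAS). The genes so switched on encode sensors of foreign nucleic acids, enzymes that cut or bind viral RNA, GTPases that attack the vacuoles of intracellular microbes, and factors such as Irf1 and Irf7 that carry the response on. Fibroblasts make type I interferon and respond to both kinds.

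All values are log2 intensities as deposited after RMA, a method that corrects background and gives the arrays a common distribution, so a difference is measured against the rest of the genes. The median of all probe sets lay between 4.74 and 4.92 on the 16 arrays. As a guide to background, 12 probe sets for bacterial control transcripts had a 95th percentile of 4.34, called the control limit below. A gene whose lower group lies near that limit has a fold change that is an underestimate. The mean of 7 fibroblast markers, among them Col1a1, Dcn and Lum, was 10.5 to 10.7 on the in vivo arrays and 8.80 to 9.18 on the cultured arrays. The pan-leukocyte gene Ptprc was below the control limit in every group (group means of 3.07 to 3.10). Other leukocyte genes were mixed: in fresh cells Cd52, Laptm5 and Coro1a had group means of 4.38 to 4.91, above it, and Cd53 of 4.30 to 4.33, below it. Macrophage and monocyte genes were mixed as well. In fresh young and old cells Cd68 had means of 8.09 and 8.10 and Csf1r of 7.53 and 6.455. Lyz2, Cd14, Fcgr1 and C1qc were also above the limit there, with means of 4.45 to 5.25. Adgre1, Itgam, Aif1, C1qa, C1qb and Mrc1 were below it. Array correlations were 0.977 to 0.992 within the in vivo condition, 0.987 to 0.996 within the cultured one and 0.879 to 0.913 between them. One array, old in vivo replicate 1, stood apart in these genes and in keratins, as described below, and results that rest on it are given with and without it.

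Promoters of 7 of the genes are shown first, because they carry the letters of these elements. In RefSeq promoters of assembly GRCm38.p6, 33 of the 43 genes had an entry. The 250 bases before the start were searched on both strands for the ISRE letters GAAANNGAAA and the GAS letters TTCNNNGAA; a GAS and an ISRE can share bases where a GAS ends in the GAA that opens an ISRE. Of the 33 genes, 15 (45.5%) held an ISRE match, against 936 of all 27025 genes with an entry (3.46%). A GAS match was found in 10 (30.3%), against 8.13% of all genes with an entry, and both kinds in 6 (18.2%), against 0.459%. A match is a description of the letters and not a measured binding site.

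Printed here are the 130 bases before the start, 5′ to 3′ on the strand of the gene, with ISRE and GAS matches in capitals. Gbp2, Gbp7, Igtp and Trim30a are the 4 genes with an ISRE match and an entry whose levels were lowest in culture relative to fresh cells, and Irf1 is a strongly lowered gene with a GAS match alone. Irgm2 and Tgtp1 were added after their values had been seen, because their matches lie like those of Igtp. The stretches are chr3:142620533-142620662 (plus strand) for Gbp2, chr3:142530206-142530335 (plus) for Gbp7, chr11:58199426-58199555 (plus) for Igtp, chr11:58214847-58214976 (plus) for Irgm2, chr11:48992247-48992376 (minus) for Tgtp1, chr7:104465194-104465323 (minus) for Trim30a and chr11:53769884-53770013 (plus) for Irf1.
Gbp2: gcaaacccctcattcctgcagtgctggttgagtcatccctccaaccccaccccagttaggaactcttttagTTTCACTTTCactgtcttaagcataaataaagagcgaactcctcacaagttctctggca
Gbp7: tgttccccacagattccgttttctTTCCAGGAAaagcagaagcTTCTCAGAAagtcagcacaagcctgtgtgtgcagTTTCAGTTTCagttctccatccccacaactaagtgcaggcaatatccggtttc
Igtp: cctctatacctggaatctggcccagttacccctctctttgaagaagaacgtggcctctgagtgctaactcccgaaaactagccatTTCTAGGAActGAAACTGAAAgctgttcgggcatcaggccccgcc
Irgm2: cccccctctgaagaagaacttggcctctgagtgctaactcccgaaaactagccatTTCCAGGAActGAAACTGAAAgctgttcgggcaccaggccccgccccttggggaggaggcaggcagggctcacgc
Tgtp1: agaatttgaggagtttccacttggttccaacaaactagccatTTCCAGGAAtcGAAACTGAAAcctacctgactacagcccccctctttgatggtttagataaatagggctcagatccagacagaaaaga
Trim30a: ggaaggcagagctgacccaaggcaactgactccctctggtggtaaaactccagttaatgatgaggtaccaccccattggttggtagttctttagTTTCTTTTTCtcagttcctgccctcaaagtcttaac
Irf1: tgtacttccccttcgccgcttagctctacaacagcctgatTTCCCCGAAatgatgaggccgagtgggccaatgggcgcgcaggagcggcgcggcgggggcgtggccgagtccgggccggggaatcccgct
In Igtp, Irgm2 and Tgtp1 the GAS match ended 2 bases before the ISRE match, and in Gbp7 the nearer GAS match ended 25 bases before it. Igtp and Irgm2 are direct neighbours on chromosome 11, so their promoters are not independent examples. Other members also lie side by side in the RefSeq table with no gene between them, namely Rsad2 and Cmpk2 on chromosome 12, Parp14, Dtx3l and Parp9 on chromosome 16, Ifit2 and Ifit3 on chromosome 19, and Gbp7 and Gbp3 on chromosome 3.

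The first comparison asked how the cultured cells differed from the freshly isolated ones. Most interferon-induced genes were lower in culture, in mice of both ages. Averaged over the ages, 36 of the 38 genes tested fell, none rose, and Adar and Trim25 did not pass the threshold (limma, Benjamini-Hochberg adjusted p below 0.05 over all genes tested). Of all genes tested 44.7% fell, and the median log2 change was -1.97 for the interferon-induced genes and -0.11 for all genes. At least a 2-fold fall was seen in 28 of the 38, against 8.1% of all genes. In 32 of the 38 all 8 cultured arrays lay below all 8 in vivo arrays, which held for 21.2% of all genes. Among all genes ordered by this change, 29 of the 38 were within the lowest 10%, with Iigp1 at rank 8, Gbp2 at 16 and Igtp at 30.

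**Figure D1:**
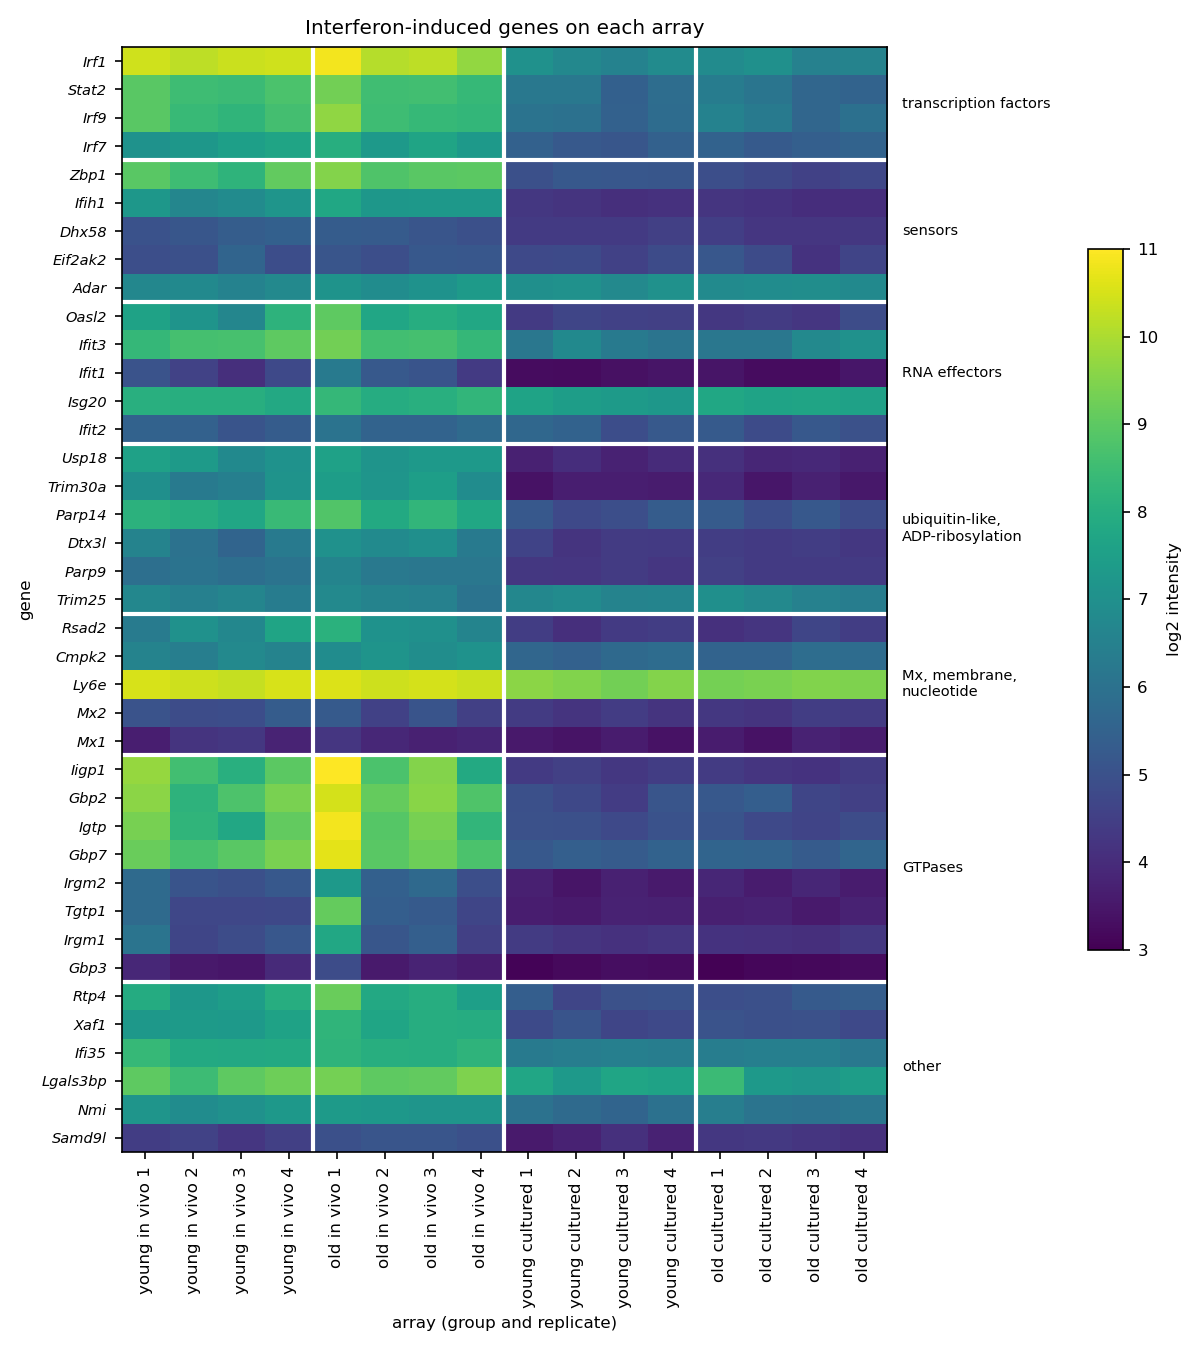
Log2 intensity (colour) of the 39 measured interferon-induced genes (rows, grouped by role) on the 16 arrays (columns, grouped by age and condition). The 8 in vivo columns on the left are brighter for most genes than the 8 cultured columns, and old in vivo replicate 1 is the brightest column among the GTPases.

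**Figure D2:**
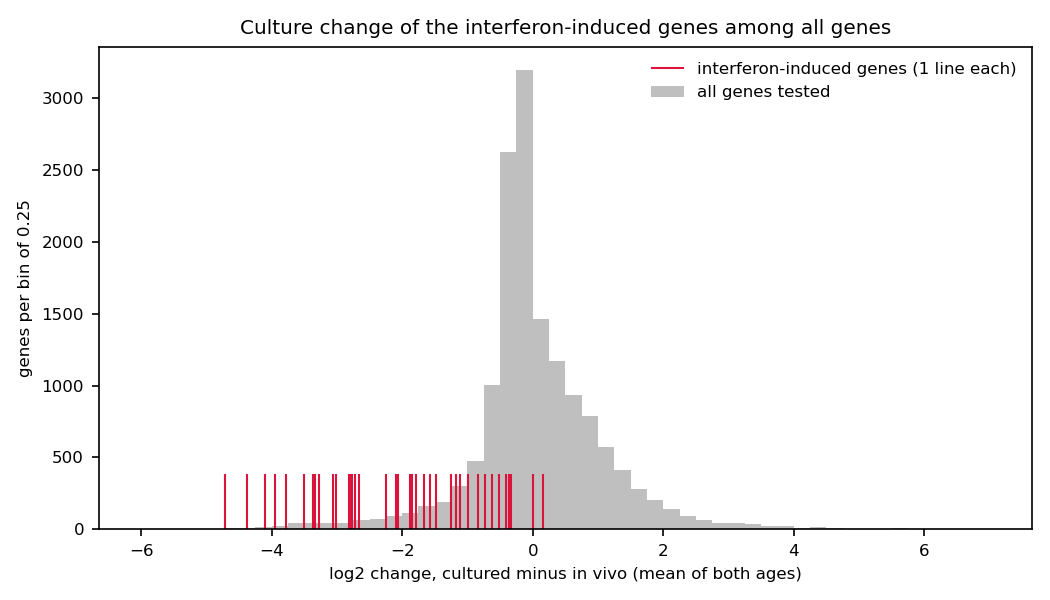
Distribution of the log2 change, cultured minus in vivo and averaged over the ages, for all 14819 genes tested (grey bars, genes per bin), with 1 red line for each of the 38 interferon-induced genes tested. The lines run from -4.71 (Iigp1) to 0.15 (Trim25), and the median of all genes is -0.11.

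All 4 transcription factors of the response fell, with changes of -3.51 to -2.09. Irf1, a factor induced by interferon gamma that binds ISRE-like sequences, had values of 10.41, 10.20, 10.37 and 10.43 on young in vivo replicates 1 to 4 and 10.85, 10.11, 10.20 and 9.69 on the old ones, against 7.04, 6.74, 6.56 and 6.86 on the young cultured and 6.87, 7.02, 6.52 and 6.57 on the old cultured arrays. Every in vivo array was above every cultured array. The change was -3.51 ± 0.13 (standard error of the fit, 8 arrays per condition, adjusted p = 2.86e-13), an 11.4-fold fall.

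Stat2, a part of the complex that binds the ISRE, read 8.96, 8.51, 8.45 and 8.74 in fresh young and 9.29, 8.56, 8.59 and 8.36 in fresh old cells, and 6.20, 6.20, 5.44 and 5.87 in cultured young and 6.37, 6.10, 5.64 and 5.55 in cultured old cells. Its conditions did not overlap, and it fell by 2.76 ± 0.16 (adjusted p = 6.19e-11). Irf9, the DNA-binding subunit of that complex, fell by 2.66 ± 0.19 (adjusted p = 1.12e-09), from group means of 8.54 ± 0.31 (SD, n = 4, young) and 8.71 ± 0.65 (old) to 5.84 ± 0.26 and 6.10 ± 0.39. Irf7, the factor that amplifies type I interferon production, was the least lowered of the 4. It read 7.08, 7.24, 7.51 and 7.67 in fresh young, 8.02, 7.31, 7.68 and 7.34 in fresh old, 5.49, 5.23, 5.15 and 5.48 in cultured young and 5.53, 5.28, 5.43 and 5.56 in cultured old cells. These values again did not overlap between the conditions (-2.09 ± 0.11, adjusted p = 2.36e-11).

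Among the 5 sensors and their regulators 4 fell, 2 of them strongly. Zbp1, a sensor of Z-form nucleic acid that can trigger cell death, read 8.95, 8.50, 8.21 and 9.07 in fresh young and 9.53, 8.80, 8.95 and 8.98 in fresh old cells. After culture it read 4.96, 5.21, 5.18 and 5.13 in young and 4.92, 4.72, 4.54 and 4.71 in old cells. The gene fell by 3.95 ± 0.12 (15.5-fold, adjusted p = 3.24e-14), and the conditions lay far apart. A second, dimmer probe set of Zbp1 fell by 0.98, and the mean over probe sets gave -2.47 (adjusted p = 6.51e-13).

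Ifih1, which encodes the double-stranded RNA sensor MDA5, read 7.22, 6.66, 6.85 and 7.17 in fresh young, 7.75, 7.24, 7.28 and 7.25 in fresh old, 4.31, 4.21, 4.09 and 4.13 in cultured young and 4.24, 4.16, 4.05 and 4.06 in cultured old cells. All cultured values were below the control limit, so its change of -3.02 ± 0.09 (8.12-fold, adjusted p = 2.49e-14) is an underestimate. Dhx58, a regulator of the RNA sensors, fell by 0.84 ± 0.08 (adjusted p = 2.61e-08), and Eif2ak2, the RNA-activated kinase that stops translation, fell by 0.37 ± 0.13 (adjusted p = 0.0138). Eif2ak2 had in vivo group means of 5.08 and 5.10 and cultured means of 4.74 and 4.70, and its conditions overlapped.

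Adar, the enzyme that edits adenosine in double-stranded RNA and keeps self RNA from the sensors, had no change averaged over the ages (0.00 ± 0.07, adjusted p = 0.975). Its values were 6.69, 6.81, 6.54 and 6.77 in fresh young, 7.12, 6.88, 7.09 and 7.36 in fresh old, 6.99, 7.06, 6.78 and 7.04 in cultured young and 6.82, 6.89, 6.91 and 6.79 in cultured old cells. The young in vivo arrays were thus mostly the lowest and the old in vivo arrays mostly the highest. Its 3 probe sets disagreed, with cultured minus in vivo differences of 0.0025, -0.54 and 0.58, so no direction can be given for the gene. The direction also turned with the scaling, to -0.20 under 75th percentile scaling and to -0.18 under cyclic loess.

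All 5 measured genes of RNA-degrading and RNA-binding effectors fell. Oasl2, a relative of the enzymes that activate the antiviral ribonuclease, read 7.60, 7.15, 6.67 and 8.16 in fresh young, 9.01, 7.74, 7.98 and 7.81 in fresh old, 4.37, 4.68, 4.55 and 4.53 in cultured young and 4.30, 4.38, 4.28 and 4.87 in cultured old cells. It fell by 3.27 ± 0.20 (9.65-fold, adjusted p = 1.79e-10), with no overlap and with most cultured values near the control limit.

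The Ifit proteins bind viral RNA ends and block translation. Ifit3 read 8.32, 8.63, 8.68 and 9.01 in fresh young, 9.30, 8.58, 8.63 and 8.32 in fresh old, 6.17, 6.79, 6.28 and 6.08 in cultured young and 6.17, 6.16, 6.78 and 7.04 in cultured old cells, without overlap (-2.25 ± 0.16, adjusted p = 1.64e-09). Ifit1 fell by 1.58 ± 0.20 (adjusted p = 1.56e-06) to cultured means of 3.32 and 3.36, below the control limit. Their neighbour Ifit2 read 5.53, 5.47, 5.09 and 5.32 in fresh young, 6.04, 5.56, 5.54 and 5.76 in fresh old, 5.67, 5.51, 4.89 and 5.23 in cultured young and 5.27, 4.84, 5.21 and 4.99 in cultured old cells. The conditions overlapped in the young mice and not in the old ones. Averaged over the ages Ifit2 fell by 0.34 ± 0.11 (adjusted p = 0.013), a call lost after cyclic loess (-0.21, adjusted p = 0.114). Isg20, an RNA exonuclease, fell by 0.52 ± 0.07 (adjusted p = 5.52e-06). An Ifit3 probe set may also read its near-identical copy Ifit3b, so its values are uncertain between the pair.

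Of the 6 measured genes for ubiquitin-like modification, ubiquitin ligases and ADP-ribosylation, 5 fell and Trim25 did not pass. Usp18, the protease that removes Isg15 and also restrains the type I receptor, read 7.57, 7.36, 6.79 and 7.09 in fresh young, 7.57, 7.13, 7.31 and 7.30 in fresh old, 3.74, 4.05, 3.78 and 3.98 in cultured young and 4.12, 3.87, 3.91 and 3.74 in cultured old cells. It fell by 3.37 ± 0.10 (10.3-fold, adjusted p = 2.49e-14), and all cultured values were below the control limit.

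Trim30a, a protein of the tripartite-motif family whose promoter is printed above, read 6.97, 6.25, 6.44 and 7.10 in fresh young, 7.45, 7.16, 7.47 and 6.90 in fresh old, 3.40, 3.67, 3.67 and 3.62 in cultured young and 3.93, 3.47, 3.74 and 3.53 in cultured old cells. It fell by 3.34 ± 0.12 (adjusted p = 2.75e-13), also to below the control limit. The ADP-ribosyltransferase genes Parp14 and Parp9 fell (-3.06 ± 0.15, adjusted p = 7.72e-12, and -1.79 ± 0.07, adjusted p = 4.04e-13), as did Dtx3l, the ubiquitin ligase that pairs with Parp9 (-2.07 ± 0.13, adjusted p = 2.26e-10). These 3 are neighbours, and none overlapped between the conditions.

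Trim25, the ubiquitin ligase that activates the RNA sensor of Ddx58, read 6.69, 6.49, 6.65 and 6.35 in fresh young, 6.78, 6.58, 6.51 and 6.06 in fresh old, 6.69, 6.85, 6.58 and 6.60 in cultured young and 6.97, 6.76, 6.50 and 6.38 in cultured old cells. All 4 groups overlapped. The difference of 0.15 ± 0.10 did not pass (adjusted p = 0.187), and after scaling to the 75th percentile its sign turned (-0.045, adjusted p = 0.685).

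All 5 measured genes of the Mx, nucleotide and membrane effectors fell. Rsad2, which encodes viperin, an enzyme that makes a chain-terminating nucleotide, read 6.32, 7.04, 6.69 and 7.68 in fresh young, 8.11, 7.07, 7.0 and 6.60 in fresh old, 4.44, 4.08, 4.37 and 4.44 in cultured young and 4.12, 4.22, 4.66 and 4.45 in cultured old cells. It fell by 2.72 ± 0.20 (6.57-fold, adjusted p = 1.87e-09), without overlap. Its other 2, dimmer probe sets had changes of -1.13 and -0.35, and the mean over probe sets gave -1.40 (adjusted p = 6.11e-10). Its neighbour Cmpk2, a nucleotide kinase, read 6.59, 6.43, 6.77 and 6.57 in fresh young, 6.90, 7.13, 6.93 and 7.08 in fresh old, 5.64, 5.48, 5.74 and 5.84 in cultured young and 5.54, 5.54, 5.86 and 5.82 in cultured old cells. Each condition kept to its own range (-1.12 ± 0.08, adjusted p = 5.68e-10).

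Mx1, a dynamin-like antiviral GTPase, was near background throughout, at 3.67, 4.19, 4.29 and 3.81 in fresh young, 4.28, 3.88, 3.73 and 3.83 in fresh old, 3.55, 3.43, 3.62 and 3.39 in cultured young and 3.62, 3.38, 3.76 and 3.62 in cultured old cells. All of these lay below the control limit, so its change of -0.41 ± 0.10 (adjusted p = 0.00133) says little about its level. Mx2 fell by 0.62 ± 0.11 (adjusted p = 6.6e-05), and Ly6e, a membrane-anchored protein, fell by 1.0 ± 0.06 (adjusted p = 1.52e-10).

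The 7 tested guanylate-binding and immunity-related GTPases, which coat and break the vacuoles of intracellular parasites and bacteria, had the lowest median change of the 7 roles (-3.78), and all 7 fell without overlap. Iigp1 read 9.74, 8.57, 8.06 and 8.99 in fresh young, 11.04, 8.72, 9.50 and 7.85 in fresh old, 4.36, 4.53, 4.29 and 4.45 in cultured young and 4.39, 4.22, 4.16 and 4.40 in cultured old cells. The in vivo arrays were far apart from each other and the cultured arrays close together. Its change was -4.71 ± 0.33 (26.2-fold, adjusted p = 1.04e-09), and -4.41 without old in vivo replicate 1.

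Gbp2 read 9.61, 8.17, 8.78 and 9.39 in fresh young, 10.48, 9.11, 9.59 and 8.80 in fresh old, 4.95, 4.73, 4.41 and 5.11 in cultured young and 5.20, 5.38, 4.67 and 4.50 in cultured old cells (-4.37 ± 0.24, 20.7-fold, adjusted p = 4.12e-11). Its probe set is of the kind that can bind related sequences, but a second probe set of Gbp2 fell by a like amount, -3.92. Igtp (-4.10 ± 0.29, 17.2-fold, adjusted p = 9.83e-10), Gbp7 (-3.78 ± 0.21, 13.7-fold, adjusted p = 3.92e-11) and Irgm2 (-1.88 ± 0.24, adjusted p = 2.39e-06) fell too.

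Irgm1, a GTPase that regulates the other immunity-related GTPases, read 6.07, 4.68, 4.86 and 5.18 in fresh young, 7.79, 5.13, 5.43 and 4.53 in fresh old, 4.39, 4.23, 4.14 and 4.22 in cultured young and 4.18, 4.14, 4.08 and 4.30 in cultured old cells. It fell by 1.25 ± 0.34 (adjusted p = 0.00299) with all arrays, and its change was -0.90 (adjusted p = 0.000202) without old in vivo replicate 1. Tgtp1, an immunity-related GTPase, read 5.78, 4.71, 4.70 and 4.74 in fresh young, 9.10, 5.38, 5.25 and 4.68 in fresh old, 3.63, 3.57, 3.77 and 3.74 in cultured young and 3.71, 3.76, 3.57 and 3.75 in cultured old cells. It fell by 1.85 ± 0.45 (adjusted p = 0.00133), with a change of -1.36 (adjusted p = 5.04e-07) without that array. A Tgtp1 probe set may also read the near-identical Tgtp2, which leaves the values uncertain between them. Gbp3, not tested, had group means of 3.72 ± 0.23 (SD, n = 4) in fresh young, 3.96 ± 0.61 in fresh old, 3.21 ± 0.10 in cultured young and 3.15 ± 0.07 in cultured old cells.

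The remaining 6 measured genes all fell. Rtp4, a receptor-transporting protein with antiviral activity, read 7.91, 7.23, 7.44 and 7.99 in fresh young, 9.18, 7.84, 7.97 and 7.50 in fresh old, 5.38, 4.66, 4.98 and 5.0 in cultured young and 4.93, 4.96, 5.26 and 5.37 in cultured old cells (-2.81 ± 0.20, adjusted p = 9.3e-10), with no overlap. Xaf1, which antagonises an inhibitor of apoptosis, read 7.28, 7.37, 7.29 and 7.62 in fresh young, 8.24, 7.71, 7.97 and 7.96 in fresh old, 4.81, 5.09, 4.68 and 4.76 in cultured young and 5.04, 4.95, 4.98 and 4.78 in cultured old cells (-2.79 ± 0.08, adjusted p = 1.92e-14). Again the conditions were apart, and the 4 old in vivo arrays were also above the 4 young in vivo arrays. Both genes have a second, dimmer probe set, with a change of -0.33 for Rtp4 and -0.24 for Xaf1. The mean over probe sets gave -1.57 (adjusted p = 2.23e-09) and -1.51 (adjusted p = 1.26e-12).

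Samd9l, a translational inhibitor that restricts poxviruses, changed least of these 6. It read 4.45, 4.57, 4.27 and 4.51 in fresh young, 4.96, 5.12, 5.12 and 4.96 in fresh old, 3.57, 3.76, 4.12 and 3.76 in cultured young and 4.29, 4.32, 4.22 and 4.12 in cultured old cells. Of the old cultured arrays 2 were above the lowest young in vivo array, but within each age the conditions did not overlap (-0.72 ± 0.08, adjusted p = 1.56e-07). Ifi35 and Nmi, partners in one cytosolic complex, fell (-1.66 ± 0.08, adjusted p = 7.25e-12, and -1.17 ± 0.08, adjusted p = 9.86e-10), and the secreted glycoprotein gene Lgals3bp fell by 1.48 ± 0.16 (adjusted p = 2.54e-07).

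Levels in culture lay close to background for many of these genes. The number of the 39 measured genes below the control limit was 1 to 4 on an in vivo array and 10 to 14 on a cultured array, and 10 of the 38 tested genes had both cultured group means below it. Beyond Adar, the choice of probe set did not turn a sign: 13 genes had more than 1 probe set, and 15 of their 16 other probe sets had the sign of the one used. The size did depend on it: of the 12 genes other than Adar, 4 (Rsad2, Rtp4, Xaf1 and Zbp1) changed over 1.5 times less with the mean over probe sets, and all 12 were still called lower. A scaling to the 75th percentile moved the median change of all genes from -0.11 to -0.31 and that of the interferon-induced genes from -1.97 to -2.17, so both medians moved down alike.

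Some other measures moved with culture too. For beta-actin, the 3' minus the 5' signal, which reflects RNA integrity and the length of the amplified cDNA, was -0.41 ± 0.07 (SD, n = 4) and -0.46 ± 0.11 in young and old in vivo samples, against 0.07 ± 0.04 and 0.10 ± 0.07 in cultured ones. For Gapdh the same measure did not separate the conditions, at -0.0775 ± 0.035 and -0.145 ± 0.017 in vivo against -0.105 ± 0.065 and -0.15 ± 0.022 in culture. The calls of cell type markers stand beside 44.7% of all genes tested that fell and 5156 of 14819 that rose. All 7 fibroblast markers fell (median -1.28). Macrophage and monocyte markers fell in 8 of 9 tested genes (median -0.45), and the mean of all 12 measured ones was 4.71 to 4.87 on in vivo and 4.17 to 4.24 on cultured arrays. Of the T and NK cell markers 5 of 6 fell (median -0.18; mean level 4.28 to 4.45 in vivo and 4.08 to 4.26 cultured), and of 4 tested leukocyte markers 3 fell and Cd53 rose, with mean levels of 4.17 to 4.44 and 4.00 to 4.48. Dendritic cell markers fell in 3 of 6 and rose in 1 (mean level 5.25 to 5.46 and 5.14 to 5.33). All 5 endothelial markers fell, led by Tek (-2.72) and Kdr (-2.35; mean level 5.11 to 5.83 in vivo, 3.98 to 4.39 cultured), and 3 of 5 keratinocyte markers fell (5.27 to 6.88 and 4.82 to 4.95). The dendritic and keratinocyte counts lie near the share of all genes that fell. The part of these measures in the fall of the interferon-induced genes was not tested. In such bulk samples, fewer cells that express a gene and less RNA per cell cannot be told apart, nor can changes made by the isolation from changes made by growth in culture.

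Both ages showed the fall. In young mice 32 of the 38 genes fell (38.6% of all genes did) and Adar rose (32.6% of all genes), with a median of -1.71. In old mice 36 fell (32.5% of all genes) and none rose, with a median of -2.15. The 32 genes that fell in the young also fell in the old. Without old in vivo replicate 1, 34 genes fell in the young and 34 in the old, where the median became -1.88.

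**Figure D3:**
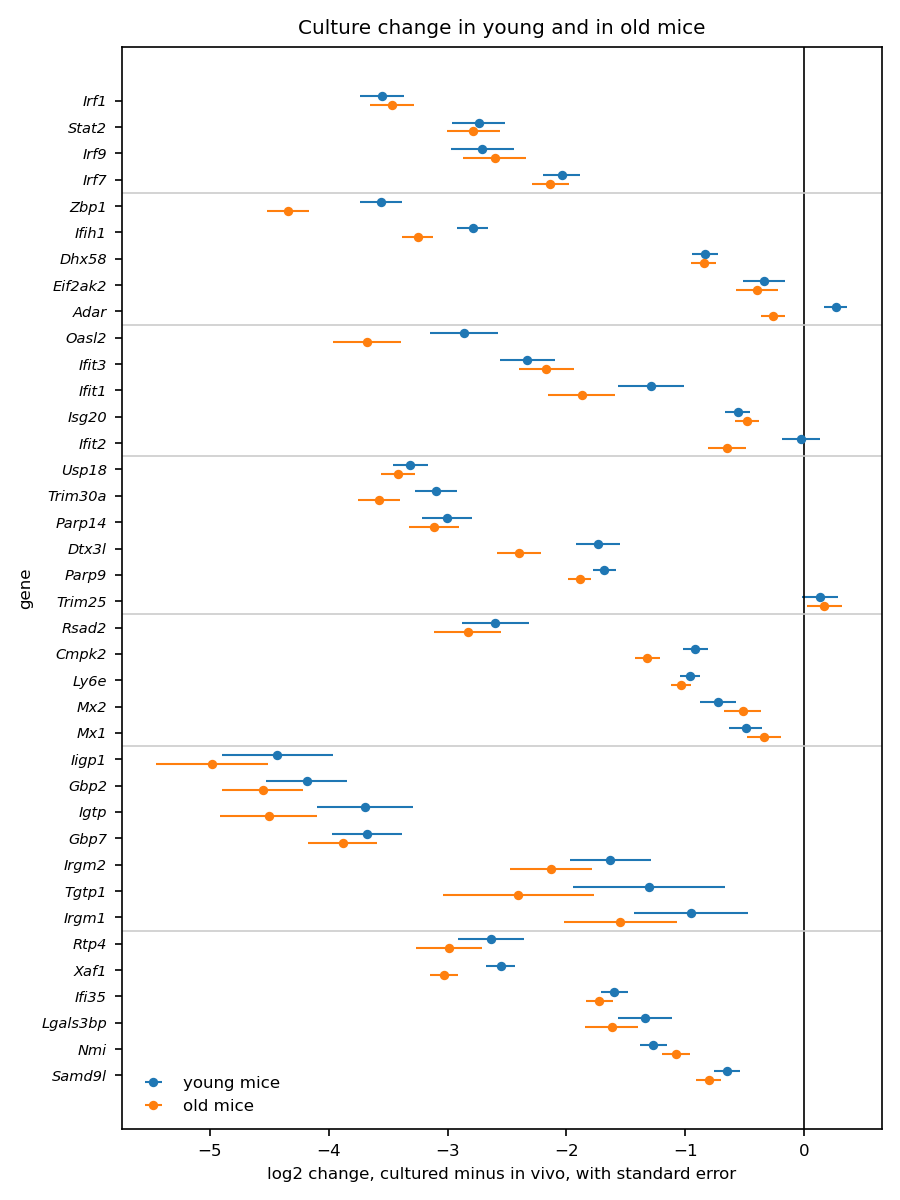
Log2 change, cultured minus in vivo, of each of the 38 genes in young (blue) and old (orange) mice, with bars for the standard error of the fit; genes are grouped by role. Most pairs of points lie close together between -4.99 and -0.34, and Adar lies on opposite sides of 0.

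In all, 4 calls differed between the ages. Ifit2 fell in the old by 0.65 (adjusted p = 0.00241) and had a change of -0.03 in the young (adjusted p = 0.884). Irgm1 and Tgtp1 fell in the old (-1.54, adjusted p = 0.0101, and -2.40, adjusted p = 0.00365), and had changes of -0.95 and -1.30 in the young that did not pass (adjusted p = 0.0831 and 0.0759). Without old in vivo replicate 1 the old changes of Irgm1 and Tgtp1 were -0.85 (adjusted p = 0.00907) and -1.41 (adjusted p = 4.26e-05), near the young ones. The young changes, which do not contain that array, then passed with the smaller spread of that fit (adjusted p = 0.00206 and 3.21e-05). Adar rose by 0.27 in the young (adjusted p = 0.0265) and fell by 0.26 in the old mice (adjusted p = 0.0328). Its young call was lost under both other scalings, and its old call without old in vivo replicate 1 (adjusted p = 0.0563).

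The test of the difference between the ages itself, the interaction, called none of the 38 genes, where 0.587% of all genes were called. At an unadjusted p below 0.05 there were 7 of the 38 (18.4%), against 1823 of all genes (12.3%). The smallest p-values belonged to Adar (-0.53 ± 0.14, adjusted p = 0.113), Zbp1 (-0.78 ± 0.25, adjusted p = 0.187) and Xaf1 (-0.48 ± 0.17, adjusted p = 0.234). A negative value means a more negative culture change in the old mice. With the mean over probe sets, the differences of Adar, Zbp1 and Xaf1 were -0.34, -0.36 and -0.23. A difference in the culture response between the ages was therefore not shown for any of these genes.

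The next comparison asked whether freshly isolated fibroblasts of old mice differed from those of young mice. Samd9l was the one interferon-induced gene that passed. Its 4 old values, 4.96 to 5.12, were all above its 4 young values, 4.27 to 4.57, a rise of 0.59 ± 0.10 (1.51-fold, adjusted p = 0.0255, limma on the 8 in vivo arrays). Its young values lay close to the control limit. Of all genes tested 0.911% were higher in the old. The call held without old in vivo replicate 1 (0.62, adjusted p = 0.0269) or replicate 4, and was lost when any 1 of the other 6 arrays was left out, with adjusted p of 0.0511 to 0.0807.

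In 33 of the 38 genes (86.8%) the difference was positive, against 53.0% of all genes, and the median was 0.33 against 0.015. In 7 genes all old arrays were above all young arrays, which held for 5.8% of all genes. These were Samd9l, Xaf1 (0.58 ± 0.13, adjusted p = 0.061; 0.31 with the mean over probe sets), Cmpk2 (0.42 ± 0.11, adjusted p = 0.0898), Adar (0.41 ± 0.12, adjusted p = 0.13), Ifit2 (0.37 ± 0.14, adjusted p = 0.236), Ifih1 (0.41 ± 0.16, adjusted p = 0.256) and Parp9 (0.32 ± 0.12, adjusted p = 0.243). A fit that shared its spread over all 16 arrays called 5 genes (Adar, Cmpk2, Dtx3l, Samd9l and Xaf1). Over all genes tested the median SD was larger in vivo (0.18 young, 0.16 old) than in culture (0.12 in both). A shared spread can therefore be too small here. Of the called genes, Dtx3l varied more in vivo at both ages, and Adar and Xaf1 in the old mice alone. Cmpk2 did not, with young and old SDs of 0.14 and 0.11 in vivo against 0.15 and 0.17 in culture. Those of Samd9l were 0.13 and 0.09 against 0.23 and 0.09. The cause of the added calls was not tested.

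Much of the shift came with a single array. Without old in vivo replicate 1, 24 of the 38 differences were positive (63.2%, against 54.4% of all genes) and the median was 0.10 against 0.02. The 7 GTPase differences, 0.35 to 1.12 with all arrays and none called, became -0.17 to 0.22. Tgtp1 went from 1.12 ± 0.79 to 0.12 ± 0.27, Igtp from 0.72 ± 0.50 to 0.22 ± 0.36, and Iigp1 from 0.44 ± 0.58 to -0.15 ± 0.41. By contrast, Xaf1 (0.49 ± 0.13, adjusted p = 0.075), Cmpk2 (0.46 ± 0.12, adjusted p = 0.0744), Trim30a (0.49 ± 0.22, adjusted p = 0.279) and Dtx3l (0.58 ± 0.23, adjusted p = 0.22) kept most of their size without it, and none of these 4 passed either way. Among the cell type markers tested in vivo, the macrophage gene Csf1r (-1.07, adjusted p = 0.0099) and the collagen gene Col1a2 (-0.64, adjusted p = 0.049) were lower in the old and no other marker passed; their part in the age difference was not tested.

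**Figure D4:**
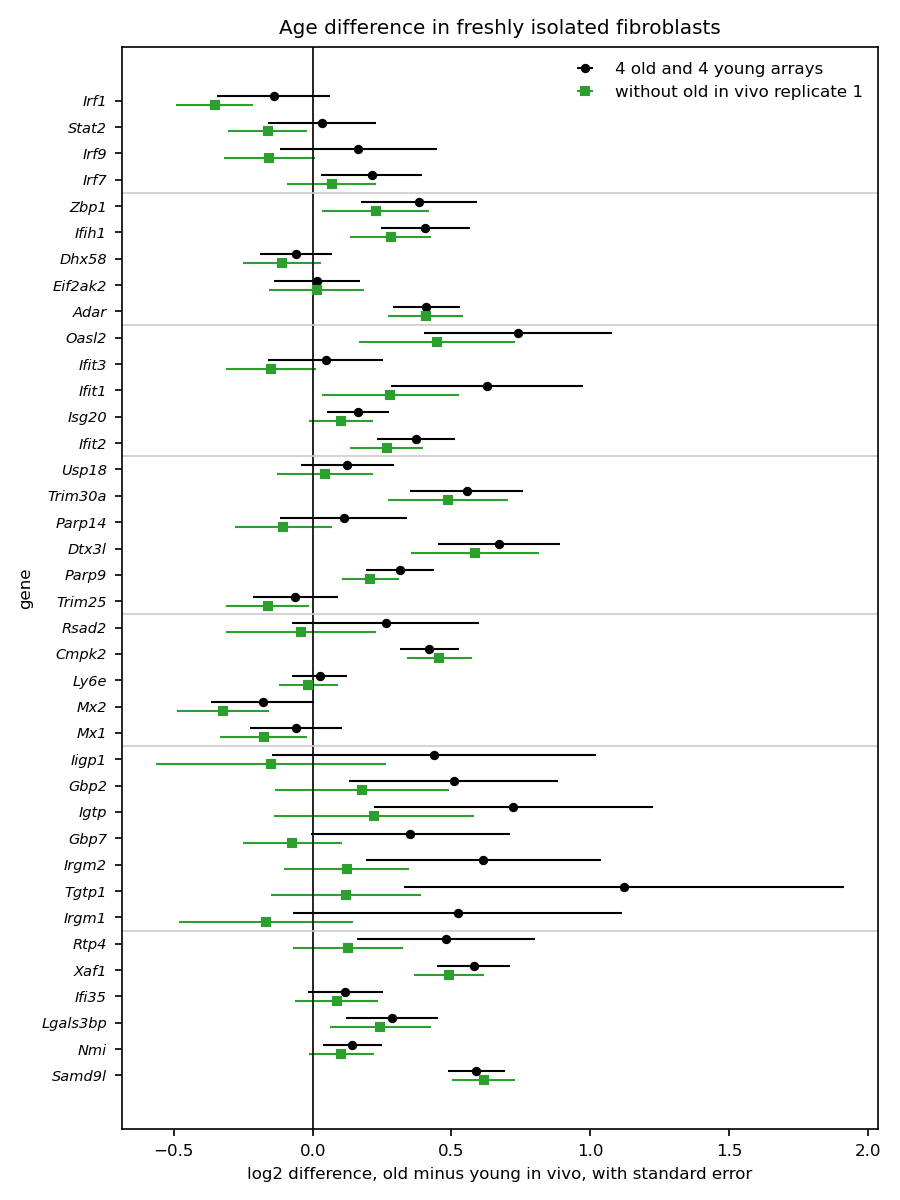
Log2 difference between old and young freshly isolated cells for each of the 38 genes, with bars for the standard error, using all 8 in vivo arrays (black) and without old in vivo replicate 1 (green). Samd9l lies at 0.59 and 0.62, while the 7 GTPases move from 0.35 to 1.12 down to -0.17 to 0.22.

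Old in vivo replicate 1 had the highest value of the 8 in vivo arrays, with no tie, in 28 of the 39 measured genes, and in all 8 GTPases. Among all genes tested this held for 1744 of 14819. Tgtp1 read 9.10 there against 4.68 to 5.78 on the other 7, Irgm1 7.79 against 4.53 to 6.07, Irgm2 7.34 against 4.93 to 5.78, Igtp 10.85 against 7.81 to 9.36 and Gbp7 10.67 against 8.66 to 9.38. Its median distance from the mean of the other 7 arrays was 2.09 for the 8 GTPases, 0.55 for the other 31 genes and -0.026 for all genes.

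Of 36 measured interferon-induced genes outside the 43, the same array was above the other 7 in 21 (58.3%, against 11.8% of all genes tested), within their range in 12 and below it in 3. Cxcl9, a chemokine induced by interferon gamma, read 8.14 against 3.93 to 6.21 on the other in vivo arrays, Ifi47, a further immunity-related GTPase, 10.23 against 7.45 to 8.75, and Nlrc5, the activator of MHC class I genes, 6.96 against 4.50 to 5.90. Gbp4 was one of the 3 below, at 8.47 against 9.06 to 9.41. Ifng and Ifnb1 read 3.51 and 4.11 there, within the range of the other 7 arrays. Of the 5 keratinocyte markers 4 were also above the other arrays, with Krt5 at 9.68 against 5.74 to 6.30 and Krt14 at 7.11 against 4.62 to 4.92, while Krt10, at 6.65, was below them; the mean of all 5 was 6.88 against 5.27 to 5.50. Means of leukocyte (4.28), macrophage (4.73) and T and NK cell markers (4.39) lay within the range of the other 7 arrays, and the fibroblast marker mean, 10.5, was the lowest. The part of keratinocyte RNA in the high values of this array was not tested.

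**Figure D5:**
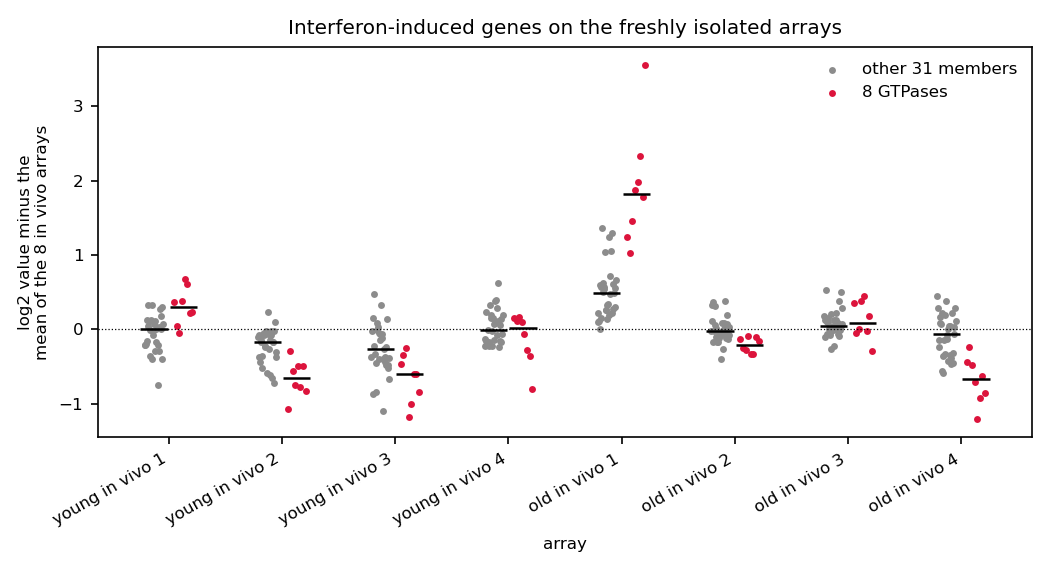
Distance of each gene from its own mean over the 8 in vivo arrays (log2), by array, for the 8 GTPases (red) and the other 31 measured genes (grey); black bars are medians. On old in vivo replicate 1 all 8 GTPases lie above 1.0, and on the other 7 arrays none does.

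The GTPases also varied from sample to sample in the young in vivo group, where Iigp1 ran from 8.06 to 9.74 and Igtp from 7.81 to 9.36. The median SD of the 8 GTPases was 0.57 in fresh young, 1.07 in fresh old (0.40 without replicate 1), 0.11 in cultured young and 0.13 in cultured old cells. Over all genes tested the median SD was 0.18, 0.16 (0.14 without that array), 0.12 and 0.12.

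In cultured cells, no interferon-induced gene passed the test between old and young mice, and none of the 14819 genes did (0%, limma on the 8 cultured arrays). At an unadjusted p below 0.05 there were 4 of the 38 (10.5%), against 533 of all genes (3.6%). The old arrays were all above the young ones in none of the 38 (1.19% of all genes) and all below them in Zbp1 alone (0.864% of all genes). The smallest p-values belonged to Zbp1 (-0.40 ± 0.09), Samd9l (0.44 ± 0.11) and Nmi (0.33 ± 0.12), each with an adjusted p of 0.997. With the mean over probe sets the Zbp1 difference was -0.10. Zbp1 had been 0.38 ± 0.21 higher in the old in vivo, also not called. Samd9l, the gene called in vivo, was again higher in the old cultured cells on average, with 1 young array (4.12) level with the lowest old one.

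The genes upstream of the response were next examined, in lists that hold no member of the 43. Their calls stand beside 44.7% of all genes tested that fell in culture and 5156 of 14819 that rose. Of the 5 tested receptor chains, Ifngr1 (-1.69 ± 0.07, adjusted p = 2.5e-12), Ifnar2 (-0.79 ± 0.06) and Ifnar1 (-0.28 ± 0.08) fell in culture, Ifngr2 rose (0.68 ± 0.07, adjusted p = 1.1e-07), and Il10rb did not pass. Both chains of the type I receptor and of the interferon gamma receptor remained above the control limit, with group means in culture of 7.59 to 8.87. Ifnlr1, a further receptor chain that was measured but not tested, was below the limit on every in vivo array. Of the kinases and Stat proteins, Jak1 (-0.76), Tyk2 (-0.49) and Stat3 (-0.86) fell and Jak2 rose (1.38 ± 0.10, adjusted p = 2.7e-09). Among 7 inhibitors of the receptors, Socs3 fell by 3.63 ± 0.16 (adjusted p = 3.4e-12), Socs1 and Ptpn6 fell (-0.24 and -0.27), and the phosphatase genes Ptpn1, Ptpn2 and Ptpn11 rose by 0.67 to 1.11. These counts lie near the shares of all genes. On the in vivo arrays Ptpn6 was below the control limit throughout and Socs1 lay near it, at 4.18 to 4.50, so their changes say little about their levels.

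Of 12 nucleic acid sensors and adaptors 8 fell, where 44.7% of all genes did, among them the double-stranded RNA receptor gene Tlr3 (-2.20 ± 0.15), the adaptor gene Myd88 (-1.63 ± 0.11), the DNA exonuclease gene Trex1 (-1.58 ± 0.10) and Ddx58, which encodes the RNA sensor RIG-I (-1.32 ± 0.10). The DNA sensor gene Cgas rose by 0.62 ± 0.11 and Mavs by 0.17 ± 0.07, and Sting1 and Samhd1 did not pass. Mavs was below the control limit on every in vivo array, so its change says little about its level. Of 6 tested kinases and factors that induce interferon, 5 fell and Tbk1 rose (0.85 ± 0.10). Of 11 measured interferon genes 7 passed the low-value filter, and 5 of these fell (-0.45 to -0.29). Ifna1 had group means of 6.12 to 6.53 and Ifna5 of 5.56 to 5.99, and Ifnab and Ifna9 were also above the control limit in every group. Ifnb1 and Ifng had group means of 3.45 to 4.10, below it.

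Of 34 tested interferon-induced genes outside the 43, 31 fell (44.7% of all genes did), Gbp4 rose (0.34 ± 0.10, adjusted p = 0.0048) and Daxx and Pml did not pass, with a median of -1.19. The most lowered were Slfn5 (-4.00 ± 0.07), a member of the Schlafen family, the chemokine gene Cxcl10 (-3.79 ± 0.23), Parp10 (-3.42 ± 0.10) and Trim21, the cytosolic antibody receptor (-3.00 ± 0.16). For the age comparison in vivo, 27 of the 34 differences were positive (79.4%, against 53.0% of all genes), and 22 (64.7%, against 54.4%) without old in vivo replicate 1. None passed as higher in either fit, and Ifi27l2a was lower in the old (-1.56, adjusted p = 0.031). All 11 genes of MHC class I presentation that were tested fell in culture (median -1.77), among them the immunoproteasome subunit Psmb8 (-3.92 ± 0.10). These lists were drawn up with earlier results of these arrays known, so their directions are not independent evidence.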

How the data were processed

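Per the submitters' processing notes, the deposited log2 intensities were made with RMA and the package affy (versions not given). The base of the logarithm was taken from the range of the deposited values, and joint normalisation of all arrays by the authors is not stated. The table holds 45141 probe sets, of which 28898 were listed with 1 gene symbol and 551 with several in the platform annotation. Each gene took its probe set with the highest mean, and genes above 3.87 (the 25th percentile of all values) on at least 4 of the 16 arrays were tested.

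A linear model of group means was fitted in limma 3.58.1 (functions lmFit and eBayes) under R 4.3.3, with two-sided p-values adjusted by Benjamini-Hochberg over all genes tested. Culture and the interaction were fitted on all 16 arrays and the age differences on the 8 arrays of each condition, because spreads differ between conditions. In vivo and cultured arrays come from the same mice, and 2 young and 2 old mice were taken per day, but the labels do not say which arrays share a mouse or day, so no block was fitted and the fit treats them as independent. The number of arrays limits the precision. No pair of arrays was identical (0 pairs). The steps were tested on simulated data.

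Values on every array are given for, in each role, the 2 genes with the most negative and the 1 with the most positive culture change, and for genes called by age, by the interaction or as higher in culture; where none was called, the 3 with the smallest p are named. Those of Tgtp1 were added after its values had been seen. Promoters were to be printed for at most 6 genes with an ISRE match, most negative change first, and at most 2 without; Irgm2 and Tgtp1 depart from that order. The genes and lists were chosen with earlier results of these data known. Alternatives were 75th percentile scaling, cyclic loess, no filter, the mean over probe sets, probe sets not marked as cross-hybridising, array weights, all 16 arrays in the age fits, and leaving out each array.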

Additional observations from a re-analysis of the deposited data

Results flagged for a closer look

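Within groups of 4 arrays, the highest or lowest value stood farther from the others than Dixon's 95% limit allows in 12 of the 156 combinations of gene and group. Chance flags about 1 group in 20. Old in vivo replicate 1 was the high value for 5 genes, namely Tgtp1 (9.10), Irf9 (9.67), Ifih1 (7.75), Parp9 (6.62) and Gbp3 (4.87), and also for the median over the 39 measured genes (8.02, against 7.24 to 7.31 on the other old in vivo arrays).

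Young in vivo replicate 1 was high for Tgtp1 (5.78) and Ifi35 (8.37), young in vivo replicate 3 was high for Eif2ak2 (5.57), and young in vivo replicate 4 was low for Isg20 (7.83). In cultured cells, the flagged values were Dhx58 in young replicate 4 (4.52), Oasl2 in old replicate 4 (4.87) and Parp9 in old replicate 1 (4.53), all high.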

How the results depend on the processing

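No paired analysis was possible because the labels do not say which arrays share a mouse or day. The counts of genes that fell in culture stayed between 35 and 37 of 38 over the other settings and at 36 whichever array was left out. The count that rose in young mice (1, Adar) was 0 under 75th percentile scaling, cyclic loess and the mean over probe sets, and 0 to 1 when single arrays were left out. The count higher in old mice in vivo (1, Samd9l) was 2 with the mean over probe sets (Cmpk2 and Samd9l), 5 with all 16 arrays in the fit, and 0 to 1 when single arrays were left out; the cause was not tested. The average culture change of Adar turned to -0.195 and -0.183 under 75th percentile scaling and loess and lay between -0.036 and 0.044 with an array left out (-0.0246, -0.0129, -0.0096, -0.0071, -0.0037 and, for a pair of arrays, -0.0013 among the negative ones). That of Trim25 turned to -0.045 under 75th percentile scaling. Of 232 settings of the counts 217 left them within 1.5 times their value. Many of these settings belonged to counts that were 0 and stayed 0, for which such a ratio says little. The count higher in old mice in vivo held in 2 of the 8 fits that left out an array. Signal near the control limit in culture bounds the size of many falls, and 4 arrays per group bound the age comparisons.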

Other observations

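The promoter letters and the high array can be set side by side. Of the 29 genes with both an array value and a promoter entry, 4 held an ISRE and a GAS match (Gbp7, Igtp, Irgm2 and Tgtp1), 8 an ISRE match alone, 4 a GAS match alone and 13 neither. On old in vivo replicate 1 the median distance from the other in vivo arrays was 2.09 (1.66 to 4.07) for the first kind, 1.19 (0.55 to 2.66) for the second, 0.44 (0.01 to 0.65) for the third and 0.30 (0.11 to 1.42) for the last. The median culture change of the tested genes of these kinds was -2.83, -2.72, -0.44 and -1.66. All 4 genes of the first kind are GTPases, as are Gbp2, Gbp3 and Irgm1 of the second, and the third and last kinds hold none. The order of the kinds on this array therefore overlaps with the high GTPase values given above. The kinds were formed after the values had been seen, neighbours such as Igtp and Irgm2 share sequence, and no test was made.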
